A study of Mus musculus with 2 samples.

Results

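The 38 genes described here encode proteins of the lysosome. They were chosen by name, with earlier results of these data known. They are 10 proteases (Ctsa, Ctsb, Ctsc, Ctsd, Ctsh, Ctsk, Ctsl, Ctss, Ctsz and Tpp1), 6 glycosidases (Hexa, Gla, Glb1, Gusb, Man2b1 and Neu1), 6 lipid hydrolases, helper proteins and phosphatases (Asah1, Psap, Gm2a, Npc2, Acp2 and Acp5), 7 membrane proteins and transporters (Lamp1, Lamp2, Cd63, Cd68, Scarb2, Npc1 and Mcoln1), 7 genes of the proton pump (Atp6v0d1, Atp6v0d2, Atp6v1a, Atp6v1b2, Atp6v1h, Atp6ap1 and Atp6ap2), the growth factor gene Grn and the transcription factor gene Tfeb. All 38 were found among the 29417 genes of the table, and all 38 reached 20 CPM, the reads of a gene scaled to the summed reads of the cells considered, in macrophage-like or fibroblast-like cells. The cells were the stromal vascular fraction, the non-adipocyte cells freed by Liberase digestion, of epididymal white fat from wild-type male C57BL/6J mice. The mice had been given standard diet (16 weeks) or high-fat diet (8 weeks in one group, 16 in another), the animals' ages and the number of mice per hashtag were not given, and all cells were marked with hashtag antibodies, pooled and read as 1 single-cell library on the BD Rhapsody system. The 9 hashtag populations are called here by the prefixes of their cells in the table, A0301 to A0305 and A0307 to A0310; the labels used here do not say which number received which diet, so no diets were compared. The single pooled library has no replicate, no test was made, and differences are described by a size rule, a ratio of at least 2 between summed CPM values (each plus 1) with at least 20 CPM on 1 side, called "2-fold" below.

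The lysosome is the acidic compartment in which cells break down material taken up from outside or delivered by autophagy. A proton pump, the V-type ATPase, acidifies it, cathepsins cut proteins, glycosidases and lipid hydrolases take apart sugar chains and lipids with the help of small activator proteins, and heavily glycosylated membrane proteins line it. TFEB and its relatives MITF, TFE3 and TFEC are transcription factors that bind short E-box motifs in the promoters of many lysosomal genes. Macrophages are rich in lysosomes, and in obese fat they take up lipid from dying adipocytes and form crowns around them, whereas fibroblasts of fat make the collagen matrix and also degrade it in part through their lysosomes.

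After quality filters 10286 cells were kept, with a median of 36709 reads and 2764 genes per cell. Clustering, from which the 38 genes and 82 other lysosome genes were left out, gave 10 named classes of 50 cells or more, among them 3443 macrophage-like cells (median 64420 reads) and 3129 fibroblast-like cells (median 45866 reads). The class names rest on a rule completed after the clusters' marker genes had been seen. In macrophage-like cells all 10 macrophage markers, such as C1qa and Adgre1, reached 20 CPM and summed to 15895 CPM, against 3 of 10 and a sum of 321 CPM among fibroblast-like cells. In the T/NK/ILC-like class 9 of 10 macrophage markers reached 20 CPM and summed to 3565 CPM, mostly in 1 of its 3 clusters, and in lymphatic endothelial-like cells they summed to 2372 CPM; the part of this in the values of those classes was not tested. The values are reads and not unique molecules, and reading favours one end of a transcript, so levels are compared between cells and never between genes. For 17 of the 38 genes the table holds no value from 1 to 4 reads in a cell (for Ctsb, none under 15), while the other 21 go down to 1 read.

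Promoter sequences were matched for 31 of the 38 genes in RefSeq (GRCm38.p6), as 300 bases from 250 before to 50 after each annotated start. The letters CACGTG, the E-box core that TFEB and its relatives recognise, were searched on both strands, and being palindromic they read the same on each. They occurred in 9 of the 31 genes (29.0%), against 8.09% of all 27025 genes with a promoter in the table and 12.4% of the 5968 such genes at 20 CPM or more in macrophage-like or fibroblast-like cells. The longer form with GT before the core and AC after it, also palindromic, was in 0 of the 31, against 0.370% of all genes. The sequences around the core are shown because they let the promoters with the motif be compared with the levels below; capitals mark CACGTG, and each window is read 5′ to 3′ on the gene's strand. Starts are those of RefSeq, and by other annotated starts a window of 30 bases may lie within the transcript. A match is a string of letters and not a measured binding site. The windows for 8 of the 9 genes follow, with Ctsd in 2 windows, and the match of Atp6v0d1, which spans its start site, is left out.
Atp6v1a (chr16:44139373-44139402, minus strand): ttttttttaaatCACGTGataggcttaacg
Ctsa (chr2:164833743-164833772, plus strand): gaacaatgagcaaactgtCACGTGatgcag
Ctsd (chr7:142388047-142388077, minus strand): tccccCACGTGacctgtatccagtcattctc
Ctsd (chr7:142387908-142387937, minus strand): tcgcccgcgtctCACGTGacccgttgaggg
Ctsl (chr13:64370739-64370768, minus strand): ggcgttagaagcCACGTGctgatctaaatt
Gla (chrX:134601174-134601252, minus strand): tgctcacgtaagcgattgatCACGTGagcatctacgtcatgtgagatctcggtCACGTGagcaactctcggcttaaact
Glb1 (chr9:114401010-114401055, plus strand): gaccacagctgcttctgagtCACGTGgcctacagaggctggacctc
Lamp1 (chr8:13159080-13159160, plus strand): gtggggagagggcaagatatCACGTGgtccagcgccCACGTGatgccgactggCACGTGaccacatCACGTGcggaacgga
Mcoln1 (chr8:3500436-3500465, plus strand): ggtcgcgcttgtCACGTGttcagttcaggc
Lamp1 carried the core 4 times and Gla carried it 2 times in the stretches shown. Not shown are another match of Mcoln1, 45 bases before its start, and another of Ctsa, 5 bases after its start. The 9 genes with the core had macrophage-like to fibroblast-like ratios of 1.55 (Mcoln1) to 14.05 (Ctsd) with a median of 2.75, and 6 of them were 2-fold higher in macrophage-like cells. The 22 matched genes without it had ratios of 0.451 (Scarb2) to 166 (Ctss) with a median of 3.96, and 18 of them were 2-fold higher. No match was found in the promoter windows of Tfeb, Cd68, Ctss or Ctsk, which says only that these letters are not in those windows.

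Most of the lysosome genes were higher in macrophage-like than in fibroblast-like cells. By the 2-fold rule 30 of 38 were higher in macrophage-like cells, beside 17.4% of all 7742 genes that reached 20 CPM, and 1, Scarb2, was lower, beside 21.5% of all genes. The other 7 were within 2-fold: Ctsh, Glb1, Lamp2, Cd63, Mcoln1, Atp6v0d1 and Atp6ap1. The median log2 ratio over the 38 was 1.77, against 0.00 over all genes tested, and the mean of log2(CPM + 1) was 8.96 in macrophage-like and 6.82 in fibroblast-like cells. Together the 38 genes took 5.02% of the reads of macrophage-like cells and 1.03% of those of fibroblast-like cells. For 31 members the macrophage-like value lay above the fibroblast-like one in all 9 hashtag populations, and for Scarb2 it lay below in all 9. No share of all genes is set beside these counts, so they do not set the members apart. Such a share is given for the stricter comparison that follows. The lowest macrophage-like population lay above the highest fibroblast-like population for 27 members, beside 21.9% of all genes, and the reverse held for Scarb2 alone, beside 21.9% of all genes.

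**Figure D1:**
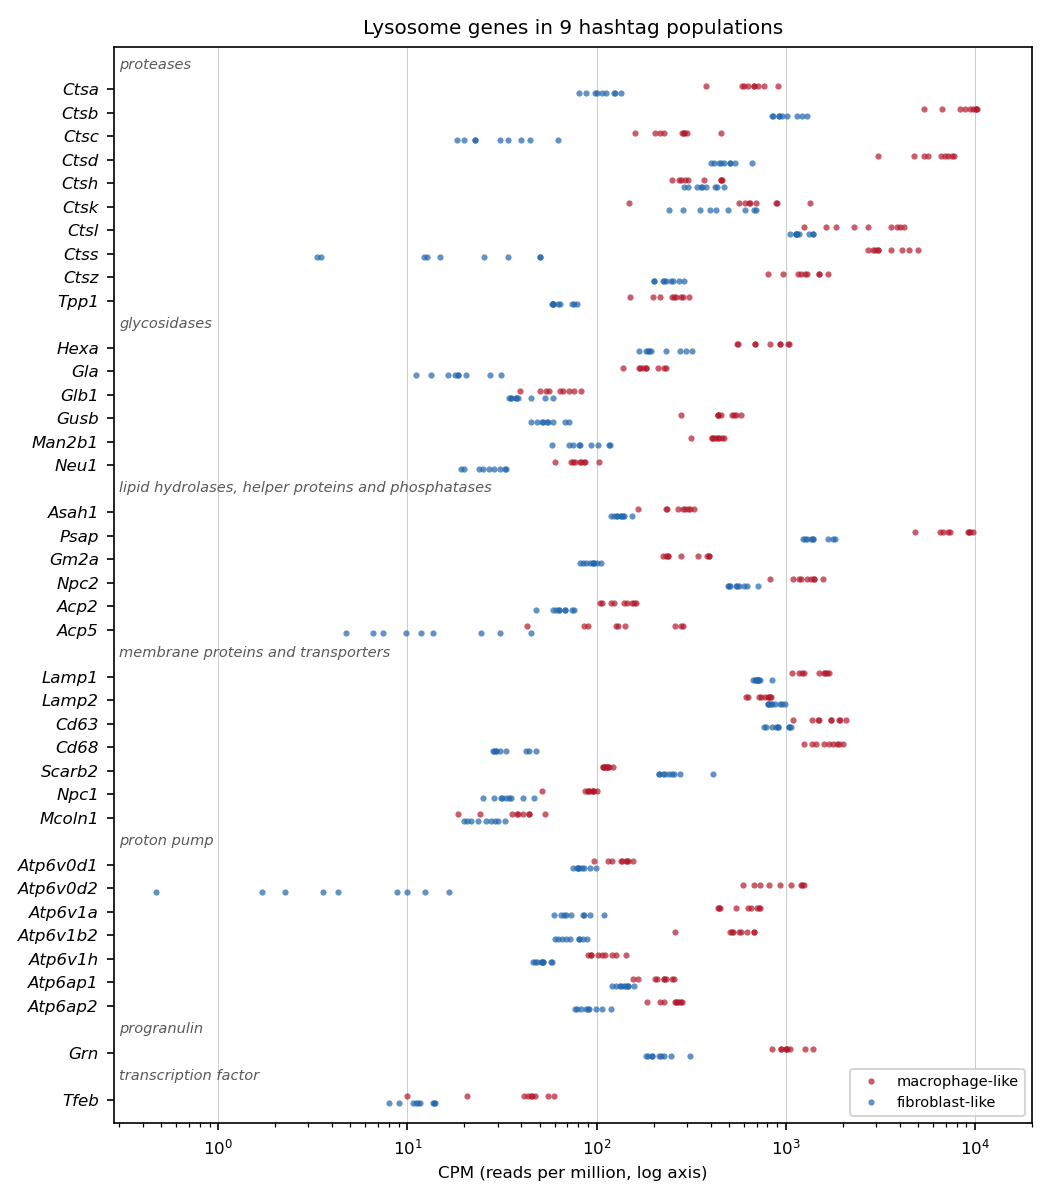
Level of each lysosome gene, as CPM on a log axis, in macrophage-like and fibroblast-like cells of the 9 hashtag populations, with the genes in rows grouped by role and each point 1 population. The macrophage-like points lie above all fibroblast-like points for 27 of the 38 genes, Ctss, Cd68 and Atp6v0d2 among them, and below all of them for Scarb2.

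Proteases were 2-fold higher in macrophage-like cells for 9 of 10 members. Ctss (chromosome 3, 95526786 to 95556403 in GRCm38, as are all positions below), which encodes cathepsin S, the cysteine protease that trims the invariant chain during MHC class II loading, stood at 3659.9 CPM in macrophage-like cells with a 95% Poisson interval of 3653 to 3667, and at 21.99 CPM in fibroblast-like cells with an interval of 21.3 to 22.7. These intervals cover counting error only, and since reads can be copies of 1 molecule they are too narrow. The ratio was 166, and it was 640.4 without the subclusters that carried another class's markers. The lowest Ctss value above 0 in a cell was 14 reads, so low values are missing and these ratios can be overstated. When each 0 was replaced by 1 read less than that lowest value, Ctss stayed 2-fold higher, but at a ratio well below 166. The size of the ratio thus depends on how the missing low values are treated. In 51 of the fibroblast-like cells, which carried macrophage markers, Ctss stood at 548 CPM. Over the 9 populations the lowest, median and highest values were 2707, 3072 and 5010.5 CPM for the macrophage-like class and 3.33, 14.9 and 50.4 CPM for the fibroblast-like class, so the groups were far from touching. In the other classes Ctss stood at 532 in B and plasma cell-like, 471 in T/NK/ILC-like, 443 in lymphatic endothelial-like, 436 in type 1 dendritic-like, 119 in mural-like, 46.97 in endothelial-like, 42.9 in mesothelial-like and 26.03 in epithelial-like cells. With each cell cut down at random to 5000 reads, a Ctss read was left in 85.7% of macrophage-like cells and 1.92% of fibroblast-like cells. For genes without low values in the table, such a share also depends on the cells' depth before thinning.

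Ctsd (chromosome 7, 142375911 to 142388038), the aspartic protease cathepsin D, stood at 6716 CPM against 478, a ratio of 14.05. Ctsb (chromosome 14, 63122462 to 63145923), cathepsin B, stood at 9627 against 995 CPM, a ratio of 9.67. The lowest, median and highest populations for Ctsb were 5344, 9378 and 10278 CPM in the macrophage-like class, against 848, 958 and 1286 CPM in the fibroblast-like class. Both genes thus separated the classes in all 9 populations, and Ctsd also carries the E-box core in its promoter, in both windows printed above. Ctsc (chromosome 7, 88278085 to 88310888), cathepsin C or dipeptidyl peptidase I, which activates the serine proteases of immune cells, had a ratio of 8.57 (271 against 31.7 CPM). The carboxypeptidase genes Ctsa and Ctsz had ratios of 6.99 and 5.69, and Tpp1, a tripeptidyl peptidase lost in a childhood storage disease, had a ratio of 4.25.

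The other cysteine cathepsins were shared with fibroblast-like cells. Ctsl (chromosome 13, 64359337 to 64370890), cathepsin L, stood at 3280.4 CPM against 1194, a ratio of 2.75, and its populations ran 1252, 2719 and 4238 CPM in the macrophage-like class, against 1049.6, 1146 and 1389 CPM in the fibroblast-like class. Ctsk (chromosome 3, 95499256 to 95509362), cathepsin K, the collagen-cutting protease best known from osteoclasts, stood at 899.5 against 443 CPM, a ratio of 2.03, just past the rule; with 1 added to each value it was 1.99, 1.93, 1.91 and 1.81 without population A0301, A0302, A0303 and A0310 in turn. In 8 of the 9 populations Ctsk was higher in the macrophage-like class, and the groups overlapped: macrophage-like values of populations A0301, A0302, A0303, A0304, A0305, A0307, A0308, A0309 and A0310 were 148, 564, 610.3, 635, 649, 883, 693, 897 and 1335 CPM, and fibroblast-like values in the same order were 352, 285, 240.2, 396, 492, 429, 679, 607 and 691 CPM. In population A0301 the order was turned. After thinning, 35.03% of macrophage-like cells and 53.8% of fibroblast-like cells held a Ctsk read, so a smaller share of macrophage-like cells carried the larger sum. With thinned reads the ratios of Ctsk and Ctsl were 1.44 and 1.87.

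Ctsh (chromosome 9, 90054152 to 90076089), the aminopeptidase cathepsin H, was the protease that did not differ by 2-fold. It stood at 333 CPM for macrophage-like cells and 363 CPM for fibroblast-like cells, and at 470.0 in epithelial-like, 270.1 in B and plasma cell-like, 232 in type 1 dendritic-like, 107 in T/NK/ILC-like, 89.2 in endothelial-like, 75.9 in lymphatic endothelial-like, 67.3 in mural-like and 44.7 in mesothelial-like cells. The epithelial-like class was its highest, and the 3 leading values lay within 333 to 470.0 CPM. The lowest, median and highest populations were 249, 302.8 and 461 CPM in the macrophage-like class, against 289, 359.9 and 469 CPM in the fibroblast-like class, which overlap.

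Among the glycosidases 5 of 6 were 2-fold higher in macrophage-like cells. Gla, the alpha-galactosidase missing in Fabry disease, stood at 193 against 19.4 CPM (ratio 9.95), and Gusb, beta-glucuronidase, at 503 against 55.6 CPM (ratio 9.05). Hexa, a subunit of the hexosaminidase that clears the GM2 ganglioside, stood at 869 against 219 CPM (ratio 3.96). Glb1, the beta-galactosidase used as a stain for senescent cells, was within 2-fold at 67.9 against 41.3 CPM (ratio 1.65). The populations of Gusb ran 279, 456 and 578 CPM in the macrophage-like class, against 45.00, 54.5 and 71.4 CPM in the fibroblast-like class without overlap, and those of Glb1 ran 39.2, 63.8 and 82.9 and 34.4, 37.5 and 59.05 CPM.

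The remaining glycosidase genes had their highest level outside macrophage-like cells. Man2b1 (chromosome 8, 85083270 to 85098282), an alpha-mannosidase, stood at 434 CPM for macrophage-like cells and 86.1 CPM for fibroblast-like cells, and at 599.6 in type 1 dendritic-like, 179 in mesothelial-like, 155 in T/NK/ILC-like, 88.03 in B and plasma cell-like, 72.2 in lymphatic endothelial-like, 47.96 in epithelial-like, 41.9 in endothelial-like and 28.5 in mural-like cells. Neu1 (chromosome 17, 34931253 to 34935953), the sialidase that works in a complex with the Ctsa product, stood at 78.9 and 26.7 CPM, and at 123 in endothelial-like, 43.2 in lymphatic endothelial-like, 41.8 in B and plasma cell-like, 39.99 in T/NK/ILC-like, 33.8 in mural-like, 28.6 in mesothelial-like, 25.5 in epithelial-like and 17.3 in type 1 dendritic-like cells. Both were therefore 2-fold higher in macrophage-like than in fibroblast-like cells and still not highest there. The populations of Man2b1 ran 315, 425 and 471 and 58.3, 82.1 and 118 CPM, and those of Neu1 60.6, 81.5 and 104 and 19.2, 26.9 and 33.2 CPM, in macrophage-like and fibroblast-like cells.

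All 6 lipid hydrolases, helper proteins and phosphatases were 2-fold higher in macrophage-like cells. Psap (chromosome 10, 60277627 to 60302597), the precursor of the saposins that present sphingolipids to their hydrolases, stood at 8365 against 1439.9 CPM (ratio 5.81), with populations of 4840.3, 7386 and 9772 and 1228, 1399.9 and 1830.1 CPM. Acp5 (chromosome 9, 22126727 to 22135711), the tartrate-resistant acid phosphatase that is an osteoclast marker, had the largest ratio of the group at 11.3 (173 against 15.4 CPM). Acp5 is a gene with no low values in the table, and its ratio was 1.99 when each 0 was replaced by 1 read less than its lowest value. It varied across populations in both classes: macrophage-like values of populations A0301 to A0310 in order were 90.2, 43.1, 127, 261, 280.0, 285, 85.9, 129 and 140.5 CPM, and fibroblast-like values were 9.83, 7.41, 6.62, 4.71, 13.6, 11.8, 24.5, 30.8 and 45.2 CPM. The macrophage-like values were highest in populations A0304, A0305 and A0307, the fibroblast-like values in A0308, A0309 and A0310, and the highest fibroblast-like value lay just above the lowest macrophage-like one. Asah1, acid ceramidase, had a ratio of 2.27, Acp2 of 2.27, and Npc2, the soluble protein that hands cholesterol to the membrane protein of Niemann-Pick type C disease, of 2.38.

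Gm2a (chromosome 11, 55098115 to 55113029), the activator protein for GM2 breakdown, stood at 293 CPM for macrophage-like cells and 93.3 CPM for fibroblast-like cells, and at 1832 in type 1 dendritic-like, 375 in mesothelial-like, 206 in T/NK/ILC-like, 171 in B and plasma cell-like, 84.9 in lymphatic endothelial-like, 56.4 in mural-like, 49.5 in endothelial-like and 35.2 in epithelial-like cells. It was the single member that was 2-fold lower in macrophage-like cells than in type 1 dendritic-like cells. The populations of Gm2a ran 224, 280.1 and 393 CPM in the macrophage-like class, against 81.2, 95.7 and 106 CPM in the fibroblast-like class.

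Membrane proteins and transporters differed least as a group, with 3 of 7 2-fold higher in macrophage-like cells, 1 lower and 3 within. Cd68 (chromosome 11, 69664213 to 69666153), a LAMP-family protein used as a macrophage stain, stood at 1782 CPM in macrophage-like cells (Poisson interval 1777 to 1787) and 34.5 CPM in fibroblast-like cells (33.6 to 35.4), a ratio of 51.7. In the other classes Cd68 stood at 275 in T/NK/ILC-like, 236 in type 1 dendritic-like, 194 in lymphatic endothelial-like, 179.9 in B and plasma cell-like, 70.9 in mural-like, 52.99 in endothelial-like, 45.98 in epithelial-like and 35.97 in mesothelial-like cells. The populations ran 1244, 1696 and 1998 CPM in the macrophage-like class, against 28.3, 30.9 and 47.8 CPM in the fibroblast-like class, and 87.98% and 13.5% of thinned cells held a read. By contrast Lamp1, the general membrane glycoprotein of lysosomes, had a ratio of 2.15 (1530.5 against 713 CPM). Its populations ran 1078, 1493 and 1697 and 671, 711 and 849 CPM. Cd63, a tetraspanin of late endosomes, stood on the threshold itself at 1804 against 903 CPM, a ratio of 1.998, and passed it, by 2.11 at the most, without population A0301, A0305, A0308 or A0309.

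Scarb2 (chromosome 5, 92441314 to 92506833), the receptor LIMP-2 that carries glucocerebrosidase to the lysosome, was the 1 gene of the 38 that was 2-fold higher in fibroblast-like cells. It stood at 113 CPM in macrophage-like (112 to 114) and 250.2 CPM in fibroblast-like cells (248 to 253), a fibroblast-like to macrophage-like ratio of 2.22. In populations A0301 to A0310 in order its fibroblast-like values were 225, 249, 229, 213, 214, 242, 255, 276 and 410.4 CPM and its macrophage-like values 108, 116, 109.8, 115, 123, 108, 112, 111 and 113 CPM. The groups did not overlap, and the macrophage-like values spanned a narrow range. With the mean of per-cell CPM, or with thinned cells, its macrophage-like to fibroblast-like ratio was 0.524 or 0.528, within 2-fold. In the other classes Scarb2 stood at 222 in mesothelial-like, 172 in epithelial-like, 136 in endothelial-like, 113 in mural-like, 76.97 in lymphatic endothelial-like, 67.3 in type 1 dendritic-like, 65.4 in T/NK/ILC-like and 45.9 in B and plasma cell-like cells.

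Lamp2 (chromosome X, 38401357 to 38456454), whose product serves autophagy, stood at 798 CPM for macrophage-like cells and 865 CPM for fibroblast-like cells, and at 552 in epithelial-like, 502 in mesothelial-like, 407 in lymphatic endothelial-like, 333 in mural-like, 293 in endothelial-like, 206 in T/NK/ILC-like, 164 in type 1 dendritic-like and 131 in B and plasma cell-like cells. Its populations ran 617, 779 and 830.0 and 803, 845 and 991 CPM, which overlap. Mcoln1 (chromosome 8, 3500457 to 3515232), the calcium channel of the lysosomal membrane, stood at 39.7 and 25.5 CPM, and at 40.1 in lymphatic endothelial-like, 30.7 in epithelial-like, 23.4 in T/NK/ILC-like, 22.8 in mural-like, 21.1 in mesothelial-like, 20.5 in endothelial-like, 19.3 in type 1 dendritic-like and 3.19 in B and plasma cell-like cells. Its highest class exceeded macrophage-like cells by less than 1 CPM, so the order of those classes carries no weight, and its populations ran 18.5, 38.7 and 53.7 and 19.9, 26.1 and 32.9 CPM. Npc1, the cholesterol transporter that receives its load from the Npc2 product, had a ratio of 2.81 (94.3 against 33.6 CPM).

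Of the 7 proton pump genes 5 were 2-fold higher in macrophage-like cells. Atp6v0d2 (chromosome 4, 19876841 to 19922605), a form of the d subunit known from osteoclasts and macrophages, stood at 1032 CPM (1028 to 1035) against 6.22 CPM (5.84 to 6.61), a ratio of 166, or 467 without the mixed subclusters. Its lowest value above 0 in a cell was 9 reads, so low values are missing and these ratios can be overstated. With each 0 replaced by 1 read less than that lowest value, Atp6v0d2 stayed 2-fold higher, but at a ratio well below 166. Here too the size of the ratio depends on how the missing low values are treated. Its sister gene Atp6v0d1 (chromosome 8, 105524465 to 105566047), the form found in most cells, stood at 138 against 83.00 CPM, a ratio of 1.66. Both were highest in macrophage-like cells, and of the pair Atp6v0d2 alone passed the 2-fold rule against fibroblast-like cells, with populations of 591, 929 and 1240.3 CPM against 0.469, 4.31 and 16.6 CPM. In the other classes Atp6v0d2 stood at 104 in T/NK/ILC-like, 56.9 in lymphatic endothelial-like, 39.2 in B and plasma cell-like, 21.04 in mural-like, 11.9 in endothelial-like, 5.69 in type 1 dendritic-like, 4.59 in epithelial-like and 2.63 in mesothelial-like cells, and a read was found in 62.4% of thinned macrophage-like and 0.959% of thinned fibroblast-like cells. The cytosolic subunit genes Atp6v1a, Atp6v1b2 and Atp6v1h had ratios of 8.47, 7.84 and 2.30. With thinned cells and 1 added to each value, that of Atp6v1h was 1.997, just within 2-fold. The accessory genes Atp6ap1 and Atp6ap2 had ratios of 1.72 and 2.93.

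Grn (chromosome 11, 102430315 to 102437048), which encodes progranulin, a secreted growth factor that is also cut into granulins in the lysosome, stood at 1119.8 against 214 CPM, a ratio of 5.23, with populations of 843, 1007 and 1399 and 181, 213 and 309.9 CPM. Tfeb (chromosome 17, 47737030 to 47792419), the regulator of lysosomal genes, was low, at 45.1 CPM for macrophage-like cells and 11.4 CPM for fibroblast-like cells, a ratio of 3.96. Its level was highest in lymphatic endothelial-like cells: the other classes stood at 70.1 in lymphatic endothelial-like, 48.5 in B and plasma cell-like, 27.95 in type 1 dendritic-like, 21.03 in T/NK/ILC-like, 19.4 in mesothelial-like, 16.7 in endothelial-like, 12.9 in mural-like and 3.84 in epithelial-like cells. The populations of Tfeb ran 9.89, 45.1 and 59.7 and 7.98, 11.4 and 13.9 CPM. Among its relatives Mitf also passed the rule towards macrophage-like cells (91.2 against 30.7 CPM), Tfe3 was within 2-fold (64.1 against 37.1 CPM), and Tfec, at 16.3 against 0.675 CPM, stayed under 20 CPM in both.

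Across the 10 classes macrophage-like cells held the highest level for 30 of the 38 genes, beside 8.65% of the 11469 genes ranked. Fibroblast-like cells were highest for 2 (Lamp2 and Scarb2, beside 6.55% of all genes), type 1 dendritic-like cells for 2 (Man2b1 and Gm2a, beside 11.6%), lymphatic endothelial-like cells for 2 (Mcoln1 and Tfeb, beside 9.97%), endothelial-like cells for Neu1 (beside 9.71%) and epithelial-like cells for Ctsh (beside 14%). Of the 38, macrophage-like cells were 2-fold higher for 35 against endothelial-like (beside 15% of all genes), 35 against mural-like (beside 15.9%), 33 against B and plasma cell-like (beside 26%) and 33 against epithelial-like cells (beside 19.3%). The counts were 31 against mesothelial-like (beside 17.6%), 30 against T/NK/ILC-like (beside 13.8%), 30 against lymphatic endothelial-like (beside 20.1%) and 28 against type 1 dendritic-like cells (beside 18%). The reverse was found for 1 gene in these 8 comparisons, Gm2a against type 1 dendritic-like cells, beside 17.5% of all genes. Endothelial-like, T/NK/ILC-like and B and plasma cell-like cells had medians of 14970, 15126 and 14773 reads, against 64420 in macrophage-like cells. Values from 1 to 4 reads were missing for 17 of the 38 genes, and for 389 of 17879 genes seen in over 100 kept cells. The part of depth and missing low values in these counts, and in the shares per cell below, was not tested. On the mean of log2(CPM + 1) the class nearest to macrophage-like cells was T/NK/ILC-like at 7.05, followed by lymphatic endothelial-like at 6.88 and fibroblast-like at 6.82.

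**Figure D2:**
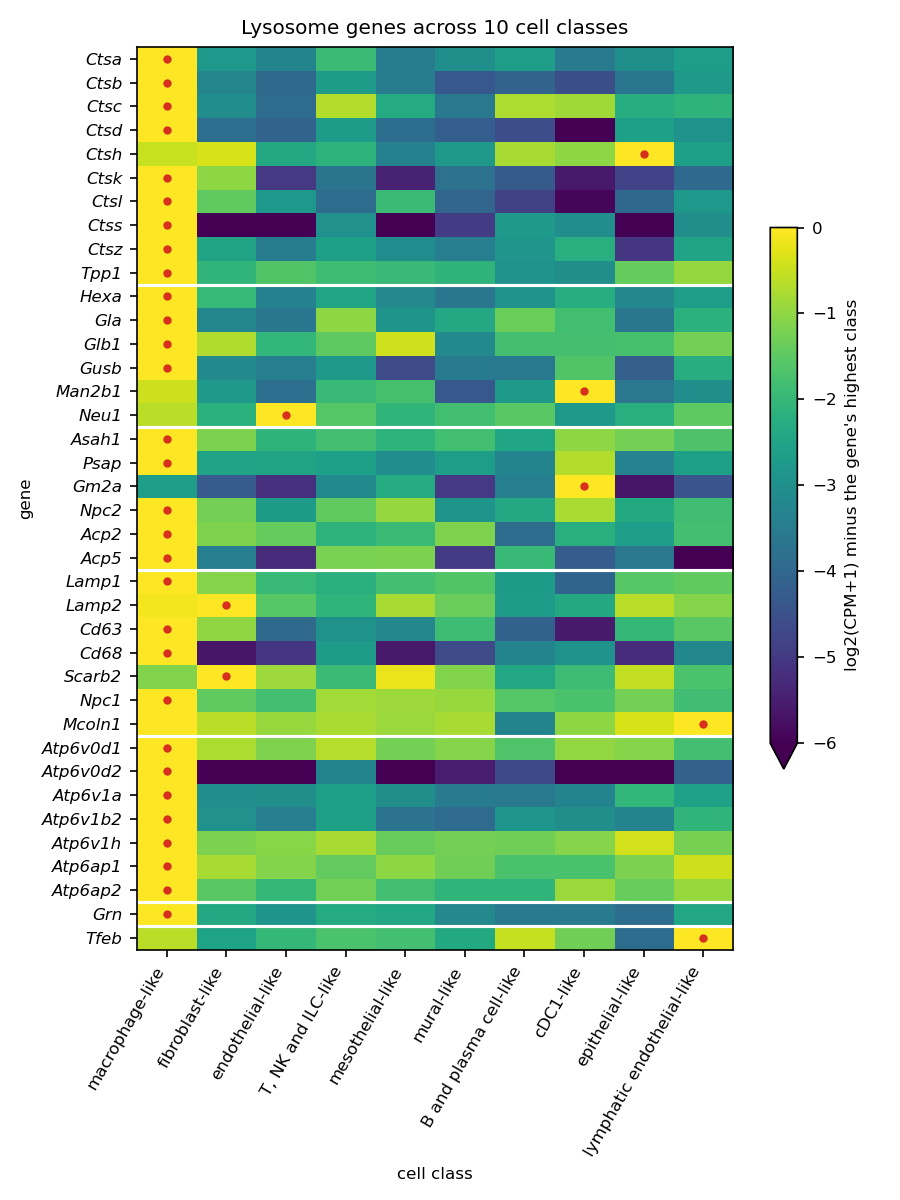
Levels of the 38 lysosome genes, in rows, across the 10 named cell classes, in columns, coloured by log2(CPM + 1) minus that of the gene's highest class, which a red dot marks; cDC1-like stands for type 1 dendritic-like. The dot lies in the macrophage-like column for 30 of the 38 genes, and elsewhere for Lamp2, Scarb2, Neu1, Man2b1, Gm2a, Ctsh, Mcoln1 and Tfeb.

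The place of T/NK/ILC-like cells in that order rests on 1 cluster. Its 3 clusters had means of 7.30 (496 cells), 5.95 (231 cells) and 5.93 (122 cells), and macrophage markers summed to 5278, 399 and 383 CPM in the same clusters. Ctsb stood at 1488 CPM in this class, above fibroblast-like cells, and the part of the cells with macrophage markers in that sum was not tested. Counted per cell, the 38 genes took a median of 4.09% of the reads of a macrophage-like cell, with a 5th percentile of 0.701% and a 95th of 7.55%. The median was 0.929% in fibroblast-like cells (0.442% to 1.60%), 1.04% in type 1 dendritic-like, 0.503% in endothelial-like and 0.339% in T/NK/ILC-like cells. Of the macrophage-like cells 86.3% lay above the 95th percentile of fibroblast-like cells.

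**Figure D3:**
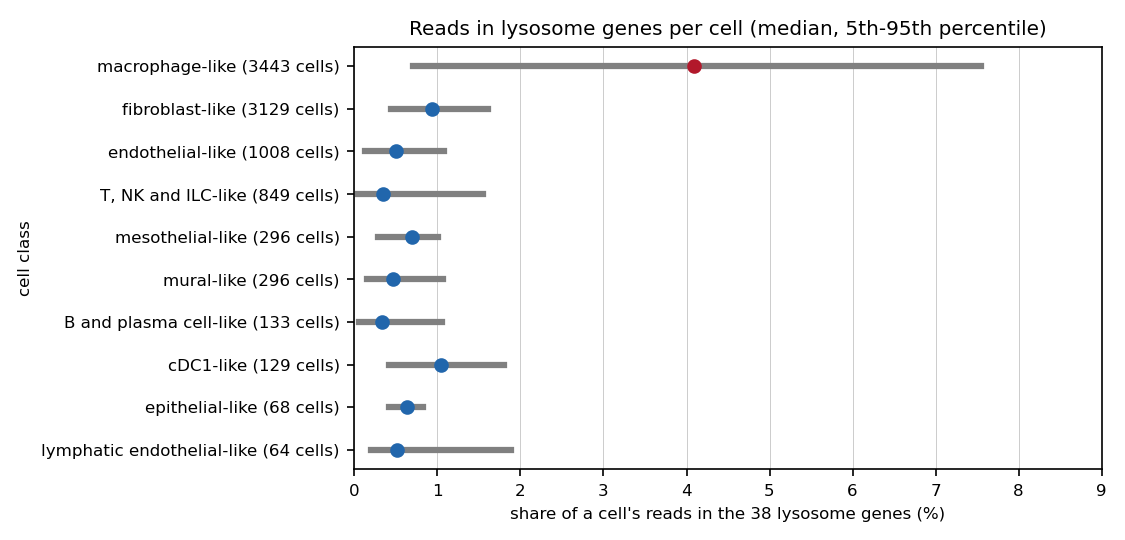
Percent of a cell's reads that fell on the 38 lysosome genes, by cell class, with the median as a point and the 5th to 95th percentiles as a line. The macrophage-like median of 4.09% lies above the 95th percentile of fibroblast-like cells, 1.60%.

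Macrophage-like cells were split into 13 states by their other genes, since no lysosome gene entered that clustering. By the 2-fold rule 18 of the 38 genes were higher or lower in some state than in the other macrophage-like cells. This count runs over 13 comparisons and has no share of all genes beside it, so it does not set the 38 apart. The counts per state below have that share. The genes with the widest range over the 11 states free of another class's markers were Ctsk, from 118 to 1497 CPM (12.6-fold), Acp5, from 31.9 to 368 CPM (11.5-fold), and Ctsc, from 88.1 to 946 CPM (10.7-fold). Scarb2 had the narrowest, 1.39-fold. States are called here by their leading genes.

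The state led by F13a1 and Cd163 (435 cells), genes of tissue-resident macrophages, had Ctsc 2-fold higher at 736 against 218 CPM (1 of 38 genes, beside 4.11% of all genes). It had 2 genes lower, beside 4.1%: Ctsk at 307.3 CPM, against 968 in the other cells, and Ctsl at 1341 CPM, against 3503. In this state 5 of 6 tested resident genes were 2-fold higher, 3 of 5 recruited genes (Ccr2, Retnla and Il1b) higher, 7 of 7 MHC class II genes higher, and 7 of 10 lipid-associated genes, a list that holds Trem2, Spp1 and Gpnmb, lower. Dissociation genes such as Fos and Jun were also higher, 7 of 8, and their part was not tested. The state with Iigp1 and Cxcl9 (109 cells), in which 7 of 7 interferon genes and likewise 7 of 7 of the MHC class II list were higher and 6 of 10 lipid-associated genes lower, had the highest Ctsc at 946 against 252 CPM (1 gene, beside 5.16%). It had 5 genes lower, beside 3.85%: Ctsd, Ctsk, Ctsl, Acp5 and Atp6v0d2. Ctsk stood there at 181 against 920.1 CPM. In the state led by Ms4a4a and Ms4a6b (355 cells) Ctsc was the single gene that was higher, at 521 against 255 CPM, beside 1.01% of all genes, and with the mean of per-cell CPM or with thinned cells it was within 2-fold there.

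In 3 other states Ctsc was the lower gene. It stood at 88.1 against 301.05 CPM in the state led by Serpinb9b and Uchl1 and including Gclm (297 cells; 1 of 38 lower, beside 5.58%), where 5 of 5 tested antioxidant genes were 2-fold higher and 7 of 7 MHC class II genes lower. It stood at 134 against 287 CPM in the state with Asns and Arg1 (289 cells; 1 lower, beside 3.36%), and at 136 against 297 CPM in the state led by Aldh1a2 and Mfge8 (341 cells; 1 lower, beside 3.73%). None of the 38 was 2-fold higher in the first and second of these, beside 1.85% and 0.204% of all genes. Ctsk was highest in the first, at 1497 against 803 CPM, short of 2-fold. The Aldh1a2 and Mfge8 state held Acp5 at 368 against 136 CPM, the 1 gene that was 2-fold higher there, beside 0.774% of all genes. In that state 32 of the 38 genes lay above the other macrophage-like cells, and its mean of log2(CPM + 1) was 0.30 higher. The median log2 ratio was 0.30 over the 38 genes and -0.074 over all genes tested. This state was the highest for 11 genes, and 0 of 10 lipid-associated genes passed 2-fold in either direction. The state led by Pgm5 and Slc45a3 (337 cells) was highest for 10 genes, Ctsa and Ctsb among them (1057 and 11557 CPM), and had Ctsh lower at 164 against 365 CPM (1 gene, beside 2.51%), with 7 of 7 MHC class II genes lower as well.

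**Figure D4:**
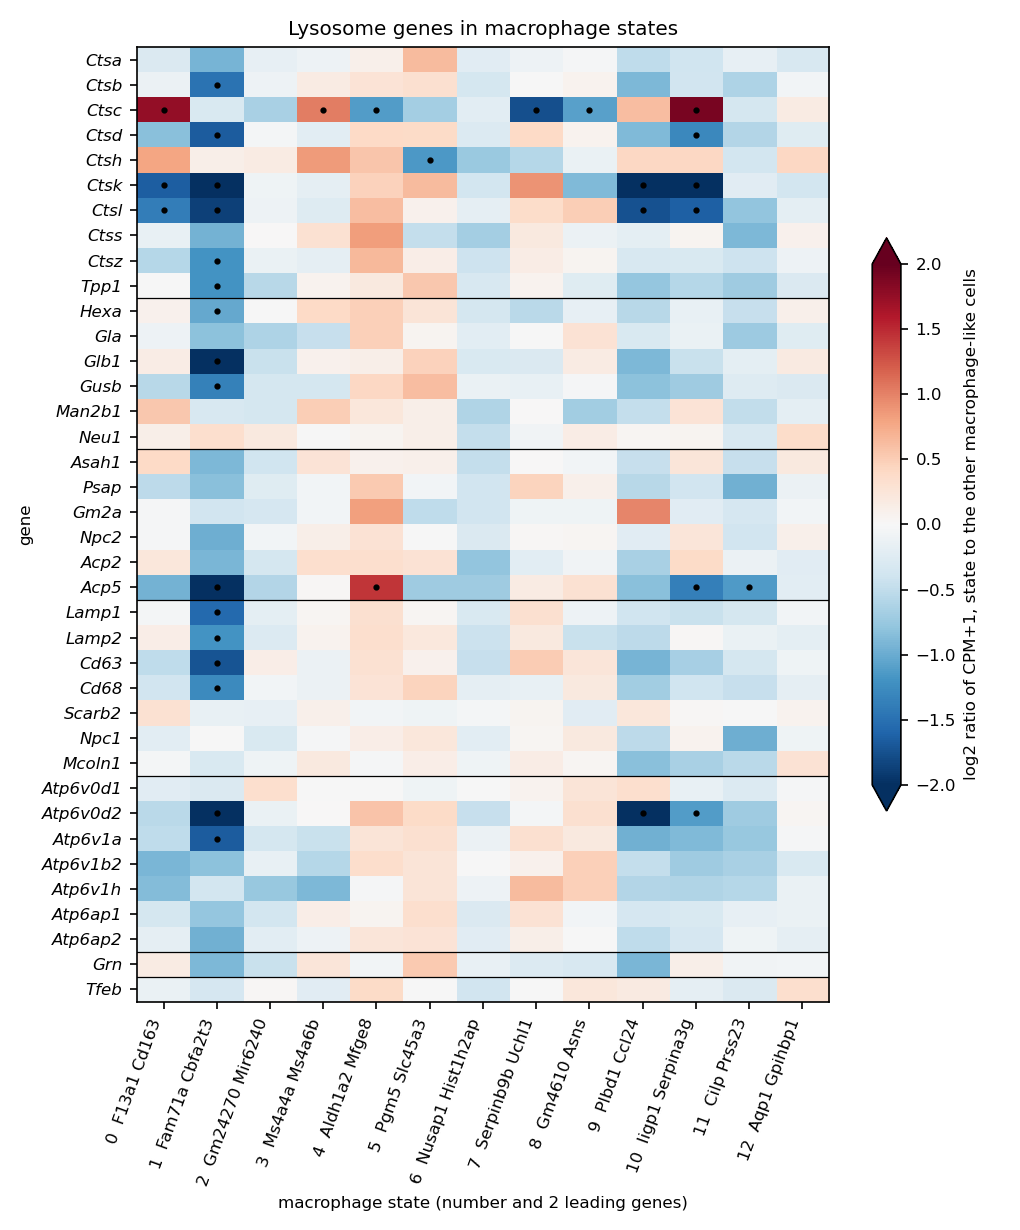
Log2 ratio of each lysosome gene, in rows, between each macrophage state and the other macrophage-like cells, in columns labelled by number and leading genes, with a black dot where the 2-fold rule is met. Ctsc is marked higher in 3 states and lower in 3, and the state led by Fam71a has 16 genes marked lower.

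The states with the lowest means of log2(CPM + 1) were those led by Plbd1 and by Fam71a. The state led by Plbd1 and including Ccr2 (114 cells), in which 5 of 5 genes of recruited macrophages and 7 of 7 MHC class II genes were higher and 7 of 10 lipid-associated genes lower, had Ctsk at 118 against 912 CPM, Ctsl at 985 against 3317 CPM and Atp6v0d2 at 237 against 1044 CPM (3 of 38 lower, beside 8.1%, a share near that of all genes). With the mean of per-cell CPM 10 genes were lower in this state, and with thinned cells 9. None was 2-fold higher, beside 3.8% of all genes. Its mean of log2(CPM + 1) was -0.56 relative to the other cells, and its Gm2a, at 569 against 289 CPM, was the highest of any state but short of 2-fold. The state led by Fam71a and Cbfa2t3 (366 cells) had 16 of 38 genes lower, beside 9.07% of all genes, and 0 higher, beside 20%, with a mean difference of -1.01. Ctsb stood there at 3506 against 9742 CPM, Ctsd at 2142 against 6802 CPM and Glb1 at 14.9 against 68.9 CPM. The other 13 were Ctsk, Ctsl, Ctsz, Tpp1, Hexa, Gusb, Acp5, Lamp1, Lamp2, Cd63, Cd68, Atp6v0d2 and Atp6v1a. In this state too 5 of 5 recruited genes were higher and 9 of 10 lipid-associated genes lower. The state also had 4 of 8 dissociation genes higher, whose part was not tested, and of 5 tested resident genes 1 higher and 2 lower. It had a median of 11075 reads per cell and 13.7% mitochondrial reads, against 64420 reads and 4.70% in all macrophage-like cells, and the count was 8 when each 0 of a gene that lacks low values was replaced by 1 read less than its lowest value. The part of depth and RNA quality in these values was not tested.

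In the cycling state led by Nusap1 (320 cells), with 6 of 6 proliferation genes higher, all 38 lysosome genes lay below the other macrophage-like cells. The mean difference was -0.32, and the median log2 ratio was -0.30 over the 38 genes and 0.085 over all genes tested. By the 2-fold rule 0 of the 38 were called in either direction (beside 7.08% higher and 1.13% lower of all genes). A state led by Gm24270, with the mitochondrial ribosomal RNA genes mt-Rnr1 and mt-Rnr2 among its leading genes (359 cells, median 11227 reads) also had 0 (beside 0.363% and 5.23%). The states with all 8 fibroblast markers (71 cells) and all 8 endothelial markers (50 cells) had 1 gene lower, Acp5 at 79.3 against 176 CPM (beside 1.88%, with none higher beside 12.1%), and 0 (beside 2.96% and 2.96%). In the state with fibroblast markers, as in the cycling state, 0 of the 38 lay above the other macrophage-like cells. Its mean difference was -0.46, and its median log2 ratio was -0.40 over the 38 genes and 0.023 over all genes tested. It also had 4 of 6 proliferation genes 2-fold higher.

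Myeloid clusters that the naming rule left without a name held lower levels than macrophage-like cells. A cluster with Fcrls, Retnla and Cd209a among its leading genes (541 cells) was nearest to type 2 dendritic cells, with 5 of 5 markers. Macrophages came next, with 8 of 10. The cluster had a mean of log2(CPM + 1) of 7.80. Against macrophage-like cells 17 of 38 genes were 2-fold lower (beside 10.1% of all genes) and 1 higher (beside 6.58%), Gm2a at 995 against 293 CPM. Ctsk stood there at 29.1 against 899.5 CPM and Ctsb at 2020.5 against 9627 CPM. A cluster with Lyve1 and Cd209f (234 cells), genes of vessel-associated resident macrophages, had a mean of 7.98, with 15 lower (beside 9.51%) and 2 higher (beside 7.66%), Ctsc at 901 and Ctsh at 743 CPM against 271 and 333. Ctsk there stood at 32.5 CPM. In both clusters Ctsk was thus far below its macrophage-like level. With both counted as macrophage-like, the macrophage-like to fibroblast-like ratio of Ctsk was 1.83 with 1 added to each value. The Lyve1 cluster had 10 of 10 macrophage markers. It stayed unnamed because its 10 leading genes held more markers of another class. The last such cluster (62 cells), nearest to neutrophil and monocyte markers, had a mean of 7.57 with 19 lower (beside 17%) and 1 higher (beside 20.5%), again Gm2a at 759 CPM.

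Fibroblast-like cells were split into 10 states in the same way. The state with Mdk and C4b (515 cells) had 3 of 36 tested genes 2-fold higher, beside 2.9% of all genes: Ctsk at 986 against 312 CPM, Acp5 at 53.97 against 6.12 CPM and Ctsc at 61.7 against 24.4 CPM. Ctsk in these cells thus stood near its level in macrophage-like cells, 899.5 CPM. Ctss was lower there, at 3.23 against 26.5 CPM, beside 3.55% of all genes. In the state with Krtdap and Dmkn (374 cells) Ctsk stood at 152 against 490.3 CPM, among 4 genes lower (beside 3.91%, with 0 higher beside 2.18%). In the state with Duox1 and Ret (375 cells) Ctsk stood at 239 against 483 CPM, and 5 genes were lower, Ctsc, Ctsk, Ctss, Gla and Neu1 (beside 5.16%), and 0 higher (beside 3.24%). A state with Inmt and 8.97% mitochondrial reads (508 cells) had 3 lower, Acp2, Scarb2 and Atp6v1a (beside 18.4%), and 0 higher (beside 1.23%). The state with Ptgs2 and Il6 had Ctsc and Ctss lower (2, beside 2.26%). In the states with Scg3 and Hmcn2, Clic6 and Apod, Chrdl1 and Gria4, and Gdf6 and Col8a1, Ctss was the 1 lower gene (beside 1.81%, 2.89%, 4.08% and 2.9% of all genes), and in these and the Ptgs2 state 0 were higher (beside 0.114%, 2.81%, 4.1%, 1.83% and 0.976%). A state of 51 cells carried 8 of 10 macrophage markers and had 11 of 38 genes higher (beside 5.32%) and 0 lower (beside 2.52%), with Ctss at 548 and Cd68 at 249 CPM, and it is part of the cells that each other state was set against, while Ctss in the other 9 states stood at 3.23 to 14.6 CPM.

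Between hashtag populations, macrophage-like means of log2(CPM + 1) over the 38 genes were 8.52, 8.37, 8.68, 9.06, 9.04, 9.02, 8.82, 8.95 and 8.93 in populations A0301, A0302, A0303, A0304, A0305, A0307, A0308, A0309 and A0310. Fibroblast-like means in the same order were 6.62, 6.56, 6.58, 6.64, 6.85, 6.72, 7.01, 7.04 and 7.10. Within a population the macrophage-like mean was thus higher by 1.81 to 2.42. The 3 lowest macrophage-like means came from A0301, A0302 and A0303, which held 50, 48 and 63 macrophage-like cells with median depths of 19426, 16174 and 14470 reads, against 354 to 758 cells elsewhere. In those macrophage-like cells the fibroblast markers summed to 1876, 4051 and 666 CPM, and to 294 to 1063 CPM in the other populations; their part was not tested. With cells of at least 20000 reads alone the macrophage-like means of A0301, A0302 and A0303 were 8.58, 8.42 and 8.79, still the lowest of the 9. The share of macrophage-like cells in a state also differed between populations: the Fam71a state made up 34% of those of A0301 and 4.88% of those of A0309, the Aldh1a2 and Mfge8 state 24.3% in A0304 and 2.01% in A0308, and the Serpinb9b state 36.7% in A0310 with a median of 2.08% over the 9.

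**Figure D5:**
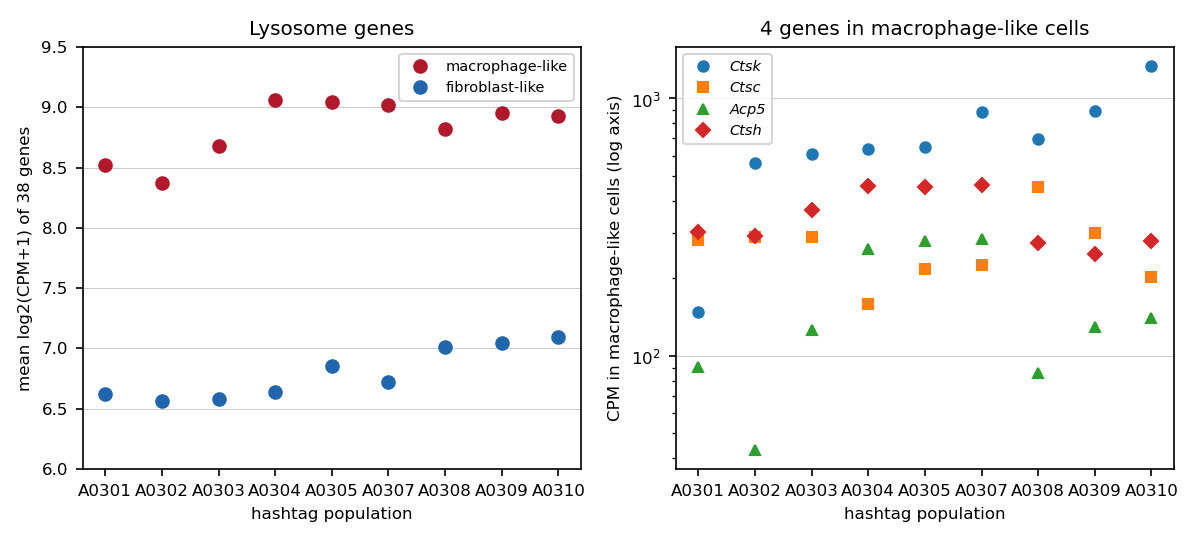
Left, mean of log2(CPM + 1) over the 38 lysosome genes in macrophage-like and fibroblast-like cells of each hashtag population, 1 point per population and class; right, CPM of Ctsk, Ctsc, Acp5 and Ctsh in macrophage-like cells on a log axis. The left panel's macrophage-like points lie between 8.37 and 9.06, above all fibroblast-like points, which lie between 6.56 and 7.10.

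Single genes followed the populations differently. Macrophage-like Ctsc in populations A0301 to A0310 in order was 283, 290.0, 289, 159.7, 217, 226, 455, 301.3 and 202 CPM, highest in A0308 and lowest in A0304. Macrophage-like Ctsh was 302.8, 293, 369, 455, 453, 461, 274, 249 and 279 CPM, highest in A0304, A0305 and A0307. The A0308 value of Ctsc sits beside the largest share of the Iigp1 and Cxcl9 state, 15.3% of the macrophage-like cells of that population, in which Ctsc was highest; the part of this share was not tested. Fibroblast-like Ctss was 3.48, 12.7, 3.33, 25.4, 34.1, 14.9, 50.3, 50.4 and 12.2 CPM, highest in A0308 and A0309. Macrophage markers in fibroblast-like cells summed to 321 and 447 CPM in those populations, to 589 CPM in A0305 and to 227 CPM or more in each of the 9, and their part was not tested. Without the subclusters that carried another class's markers, fibroblast-like Ctss over all populations was 5.78 CPM.

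Of 82 other lysosome genes found in the table, 72 reached 20 CPM, and 32 of these were 2-fold higher in macrophage-like cells, 8 lower and 32 within, with a median log2 ratio of 0.90 against 1.77 for the 38 members. Beside the shares of all genes given above for this comparison, the share higher was larger and the share lower was smaller. Of 11 proton pump genes 10 were higher, such as Tcirg1, the a3 subunit of osteoclasts and macrophages, at 347 against 41.9 CPM. Lgmn, an asparaginyl protease, stood at 1302 against 73.5 CPM, and Lipa, the acid lipase that frees cholesterol and fatty acids from lipoproteins, at 1951 against 91.9 CPM. Laptm5, a membrane protein of blood cells, stood at 1377 against 14.4 CPM, and Slc11a1, a metal transporter of phagosomes, at 306.9 against 9.14 CPM. The 8 genes that were 2-fold higher in fibroblast-like cells were Ctsf, Ctso, Gaa, Arsa, Arsb, Cd164, Laptm4a and Laptm4b, with Laptm4a at 311 against 942 CPM. Their promoters held CACGTG about as often as those of the members, in 18 of 63 matched genes (28.6%).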

How the data were processed

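Messenger RNA was measured in single cells of 1 pooled library, made with the BD Rhapsody system and the TAS-Seq amplification per the labels' protocols. The deposited table gives read counts per gene and cell for 12040 cell columns. The submitters' processing notes name cutadapt 2.10, Bowtie2 2.4.2, R 3.6.3 and the build GRCm38, with no role or order; how cells and hashtags were called, the annotation, the use of strand and the step that left some genes without low values are not stated in what was used here. Columns carry a hashtag number or a doublet call, except 12 that were not used, and the table of hashtag reads was not used.

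From these counts, cells with under 200 genes or over 25% mitochondrial reads (1253 cells), hashtag doublets (254) and cells marked by Scrublet at an expected rate of 0.05 (236) were removed; Scrublet marked 0.394% of the hashtag doublets, so doublets within 1 hashtag can remain. Cells were clustered with scanpy 1.11.5 and leidenalg 0.10.2: scaling to 10000 reads, log, 2000 variable genes without the lysosome genes, 30 principal components, 15 neighbours, resolution 1 and seed 7. A cluster was named where at least 60% of a class's markers (3 or more) reached 20 CPM and 2 times the median cluster. A mean log2 lead of 1 over the next class was also required. A cluster stayed unnamed where its 10 leading genes held more markers of another class than of its own. So did a shallow cluster with none of its own class's markers among them. This rule was completed after the clusters' marker genes were seen. Reads were summed per class, state or population and scaled to CPM over all reads; the pseudocount was 1, and genes under 20 CPM on both sides were left out. Poisson intervals are exact at 95%. No test was made: the labels tie no hashtag to a diet, cells are not replicates, and populations are given as separate values. The calling script was tested on simulated data for the macrophage-like and fibroblast-like comparison, with counts drawn for 29417 genes. It called 199 of 200 changed genes and 0 unchanged genes among those at 20 CPM or more. The draws were Poisson counts with folds set above the rule's threshold. Copied reads, differences between cells and missing low values were not covered.

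All members are described by role. Values in every class are printed for the members with the 3 largest and 3 smallest ratios and those highest outside macrophage-like cells; for members that differed 2-fold in a macrophage state the class values are plotted. Populations are given as lowest, median and highest or in full, and all are plotted. The members and lists were chosen with earlier results of these data known. Gene positions come from GENCODE M21 on GRCm38 and promoters from RefSeq on GRCm38.p6. Alternatives changed the filters, doublet removal, clustering resolution, scaling, pseudocount, fold, averaging, depth and populations, and those on mixed subclusters for class comparisons, on the unnamed clusters and on cells under 20000 reads were chosen after seeing the data.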

Additional observations from a re-analysis of the deposited data

Results flagged for a closer look

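Of 78 values looked at over the 9 hashtag populations (the 38 genes and their mean, in macrophage-like and in fibroblast-like cells), 8 had 1 population whose distance to the nearest other, as a share of the whole range, exceeded Dixon's 95% limit for 9 samples. For like and independent values chance gives about 1 in 20. The populations held 48 to 758 macrophage-like cells and the 78 values share cells, so that rate need not hold here. The limit was used as a flag and not as a test. In macrophage-like cells Ctsc was highest in population A0308 at 454.753 CPM, the next being 301.3 CPM. In the same class population A0302 was lowest for 4 genes: Gusb at 278.644 CPM (next 437 CPM), Man2b1 at 314.66 CPM (next 405 CPM), Npc1 at 51.1796 CPM (next 86.4 CPM) and Atp6v1b2 at 260.163 CPM (next 508 CPM). Population A0302 held 48 macrophage-like cells with a median of 16174 reads, the fewest cells of any population, and their fibroblast markers summed to 4051 CPM; the part of these in the 4 values was not tested. In fibroblast-like cells population A0310, with the fewest cells (174), was highest for 3 genes: Lamp1 at 849.154 CPM (next 733 CPM), Scarb2 at 410.37 CPM (next 276 CPM) and Grn at 309.933 CPM (next 246 CPM).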

How the results depend on the processing

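Under the alternatives run, the count of lysosome genes 2-fold higher in macrophage-like than in fibroblast-like cells lay between 20 (at 3-fold) and 31, and between 29 and 31 without 1 hashtag population at a time. The difference in mean log2(CPM + 1), 2.15, ran from 2.12 to 2.20 without 1 population and was 1.72 with the gaps of low values filled. The count of genes 2-fold lower, 1, was 1 whichever population was left out and 0 with the mean of per-cell CPM, thinned cells or a 3-fold rule. At 3-fold, other lysosome genes numbered 20 higher and 3 lower. No share of all genes at 3-fold is set beside the counts of either list, so they do not set the lists apart. No value changed direction, and the 3-fold rule aside 7 of the 38 members changed their call in some alternative, Cd63 and Ctsk most often. Macrophage-like cells were highest for 29 to 32 genes.

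For macrophage states, the mean of per-cell CPM gave 0 genes higher in the Ms4a4a state, 1 higher in the Serpinb9b state, and 1 higher and 10 lower in the Plbd1 state; thinning gave 0, 1, and 1 and 9 in the same order, and 0 lower in the state with fibroblast markers. Gaps filled gave 8 lower in the Fam71a state and 0 lower in that with fibroblast markers. At most 10% mitochondrial reads gave 2 lower in the latter, and keeping Scrublet doublets gave 4 lower in the F13a1 state and 2 lower in the Pgm5 state. A 3-fold rule gave 1 lower in the F13a1 state, 8 in the Fam71a state, 2 in the Iigp1 state, 0 higher in the Ms4a4a and Aldh1a2 states, and 0 lower in the Aldh1a2, Pgm5, Asns and fibroblast-marker states. For 6 and 10 of the 13 states no matching subcluster was found with the mitochondrial and the doublet alternative. The causes were not tested, except that a 3-fold rule calls fewer genes by construction. Depth limits the least covered values: 1 population had 48 macrophage-like cells.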

Other observations

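Type 1 dendritic-like cells (129 cells) were the highest of the 10 classes for 2 of the 38 members, Gm2a and Man2b1, and for 10 of the 82 other lysosome genes, shares below and near the 11.6% of all genes. The genes named here were chosen after their values were seen. Naaa, an acid amidase of lipid signals, stood at 1800.3 CPM there, and at 86.9 and 94.4 CPM in the macrophage-like and fibroblast-like classes. Ppt1, a palmitoyl-protein thioesterase, stood at 790.3 CPM against 104 and 86.8 CPM. Cst3, the cystatin C that inhibits cysteine cathepsins, stood at 16955 CPM against 2574 and 1651 CPM, and at 12847 CPM in 34 mature dendritic-like cells, a class too small to be ranked. The macrophage-like cells by contrast held more of another cystatin, Cstb, at 991 CPM against 48.5 CPM in type 1 dendritic-like cells. In the same dendritic-like cells the proteases Ctsd, Ctsl and Ctsk stood at 104, 52.9 and 17.6 CPM, against 6716, 3280.4 and 899.5 CPM in macrophage-like cells. Macrophage markers summed to 1569 CPM in that class, with 6 of 10 at 20 CPM, and their part in these values was not tested.

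Other classes also held single genes at their highest, again named after their values were seen. Ctse, an aspartic protease of epithelia, stood at 1092 CPM in epithelial-like cells against 0.189 CPM in macrophage-like cells, and Ctsw, a cathepsin of cytotoxic lymphocytes, stood at 228 CPM in T/NK/ILC-like cells against 0.713 CPM. The fibroblast-like means of log2(CPM + 1) of the hashtag populations, which the labels put in no group, were 7.01, 7.04 and 7.10 in A0308, A0309 and A0310 and lay between 6.56 and 6.85 in A0301, A0302, A0303, A0304, A0305 and A0307.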
